A study of Mus musculus with 4 samples.

Results

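Smooth muscle forms the outer wall of the stomach, and its contraction depends on a set of proteins that are made in large amounts in few other cells. The 10 genes described here encode such proteins: the actins *Acta2* and *Actg2*, the myosin heavy chain *Myh11*, the actin-binding proteins *Cnn1*, *Tagln*, *Lmod1* and *Smtn*, the kinase *Mylk*, and the intermediate filament proteins *Des* and *Synm*. They were chosen by name as smooth muscle genes of the stomach wall, from 46095 gene symbols in the table of counts, and all 10 were present and passed the filter on low counts. Stomach RNA was sequenced from 2 WT and 2 c-Myc transgenic (MYC-KI) samples of 12-week-old C57BL/6 mice. MYC-KI mice have the genotype Atp4b-cre; MycOE, which the paper gives as Atp4b-cre; Myc fl/+. The *Atp4b* promoter drives Cre in parietal cells and their precursors, so that a floxed human c-Myc transgene is expressed there. WT mice are Myc fl/fl littermates that carry the floxed transgene without Cre. The groups therefore differ in copies of the floxed transgene as well as in Cre. Cre was therefore not directed to muscle, and RNA of the whole stomach holds epithelium, muscle and vessels together. The labels do not say whether a sample is 1 mouse, so a p-value measures the spread between these samples only.

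In the muscle cell, calcium entry activates the kinase encoded by *Mylk*, which phosphorylates myosin light chains so that *Myh11* myosin pulls on filaments of smooth muscle actin. Calponin, transgelin, leiomodin and smoothelin bind those filaments, and desmin and synemin link the contractile units to each other and to the membrane. Most of these genes are switched on by the serum response factor SRF with its coactivator myocardin, through a DNA element called the CArG box.

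In the deposited table the gene names stand in an order that fits the WT columns only, and none of the 10 genes is at the same row in the name order that fits the MYC-KI columns. Each MYC-KI count was therefore given the gene name found at its row once all names had been put in character-code order, and all values below come from this re-sorted table unless the deposited names are mentioned. Over the nearest 30 rows on each side of each of the 10 genes, Pearson's r between WT and MYC-KI was 0.967 to 0.987 after re-sorting and -0.188 to 0.279 before (mean log2(count + 1) per genotype, across genes, which are no replicates).

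The libraries held 30260305 to 41463647 counts. The human transgene was not analysed here, and whether its reads reach the mouse *Myc* row was not tested. That row stood at 1062 and 759 counts in the WT libraries and at 735 and 1091 in MYC-KI replicates 1 and 2. *Xist* had 17846 counts in WT replicate 2 and 85 to 201 in the other 3 libraries, so the libraries differ in the sex that it marks. In striated muscle markers the MYC-KI libraries stood apart in opposite directions. The 12 striated muscle markers of MYC-KI replicate 2 summed to 1505 CPM (counts-per-million of the library, scaled by the TMM method of edgeR), against 133 to 179 in WT and 41.2 in MYC-KI replicate 1, and its 8 forestomach squamous markers summed to 4387 CPM, against 2633 and 1503 in WT and 871 in MYC-KI replicate 1, where 5 of the 8 were at their lowest and *Ivl* at its highest. Results are therefore also given without either MYC-KI library.

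No smooth muscle contractile gene passed the thresholds between the genotypes (adjusted p-value under 0.05 from edgeR's quasi-likelihood test and a change of over 1.5-fold), whereas 10.7% of the 17643 genes tested did, 5.65% higher and 5.08% lower in MYC-KI. With library size alone in place of TMM, calls over all genes numbered 2272 higher and 739 lower, beside 996 and 896 with TMM. The unadjusted p-value was under 0.05 for 0 of the 10 in edgeR and for 0 in DESeq2, beside 34.1% and 33.5% of all tested genes, and DESeq2 called 0 of the 10 and 17.7% of its 18257 genes. All 10 had a mean below that of WT, with log2 fold changes from -0.82 to -0.28 and a median of -0.56, beside a median of 0.01 over all tested genes. The 95% intervals of the 10 fold changes all included 0, and their lower ends lay between -2.01 and -1.34, so changes of well over 1.5-fold lie within the error of every gene. Fewer muscle cells and less RNA per muscle cell cannot be told apart in such bulk samples.

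The actins polymerize into the thin filaments on which myosin pulls. *Acta2*, smooth muscle alpha-actin, is shared by visceral and vascular muscle, and had 1565 and 974 CPM in WT replicates 1 and 2 and 479 and 963 in MYC-KI replicates 1 and 2. It was the single gene of the 10 whose genotypes did not overlap, by the narrow gap between WT replicate 2 and MYC-KI replicate 2, and 31.5% of all tested genes were lower in both MYC-KI libraries than in both WT libraries. Its log2 fold change was -0.82 (standard error 0.42, adjusted p = 0.252). *Actg2*, the gamma-actin typical of gut muscle, had 690 and 401 CPM in WT and 233 and 421 in MYC-KI, where replicate 2 lay above WT replicate 2. Its log2 fold change was -0.74 (standard error 0.40, adjusted p = 0.270).

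The coding sequences of the actin pair are 84.2% identical over 1134 aligned columns, and their longest identical run is 29 bases, which bears on how reads could be assigned. Their starts, as read from the transcripts of GENCODE M21, follow for the first 60 columns of the alignment, with capitals on the bases that differ or have no partner.
Acta2: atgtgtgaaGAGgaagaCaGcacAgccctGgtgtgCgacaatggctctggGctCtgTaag
Actg2: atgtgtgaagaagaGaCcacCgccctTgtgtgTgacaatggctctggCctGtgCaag
Of all windows of 50 bases in the coding transcripts of each gene, 0.326% of those of *Acta2* and 0.391% of those of *Myh11* also occur in a transcript of another gene, and 0 windows do so for the other 8 genes. The read length is not given in the sources used here. The share of *Actg2* in the counts of both actins was 30.6% (95% Wilson interval 30.3 to 30.9) and 29.2% (28.7 to 29.6) in WT and 32.8% (32.2 to 33.4) and 30.4% (30.1 to 30.8) in MYC-KI. These intervals cover counting error only, and the value of MYC-KI replicate 2 lies between those of the WT libraries.

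*Acta2* lies on the minus strand of chromosome 19 (chr19:34241090-34255590, GRCm38) and *Actg2* on the minus strand of chromosome 6 (chr6:83512905-83536265). Promoters of 7 of the 10 genes were searched, taken from RefSeq (GRCm38.p6), and those of *Actg2*, *Myh11* and *Tagln* were not analysed here. The 250 bases before each start were searched for the CArG box in its strict form, with only A or T in the core, and in a relaxed form with at most 1 G or C among the 6 core bases. Both strands are covered by 1 search, since the element is its own reverse complement. The strict form was in 0 of the 7 promoters and in 1.47% of the 32851 promoters used. The relaxed form was in 2 of the 7 and in 8.59% of all. The matches to the relaxed form are shown with the boxes in capitals, and the other 5 promoters held neither form. Binding of SRF to these matches was not tested.
Acta2, minus strand, chr19:34255374-34255482: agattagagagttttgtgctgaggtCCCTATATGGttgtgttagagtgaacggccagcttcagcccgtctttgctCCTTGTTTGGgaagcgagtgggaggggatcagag
Synm, minus strand, chr7:67759947-67759992: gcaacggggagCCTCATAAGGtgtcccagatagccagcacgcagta
The *Acta2* boxes begin 84 and 34 bases before the RefSeq start used for the search, and the *Synm* box begins 239 bases before its own. The gene intervals printed here are those of GENCODE M21, and the RefSeq starts of *Acta2*, *Cnn1*, *Lmod1*, *Mylk* and *Smtn* lie inside them.

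*Myh11* (chr16:14194535-14291372, minus strand) encodes the smooth muscle myosin heavy chain and drew the most counts of the 10 genes, 88447 and 47183 in WT and 26395 and 80269 in MYC-KI. These correspond to 2636 and 1691 CPM in WT and 778 and 1797 in MYC-KI. MYC-KI replicate 2 thus lay between the WT libraries, 2.31-fold above its own replicate, and the log2 fold change was -0.75 (standard error 0.47, adjusted p = 0.332). *Mylk* (chr16:34745210-35002420, plus strand), the calcium- and calmodulin-dependent kinase that starts contraction, had 965 and 674 CPM in WT and 411 and 729 in MYC-KI. Its log2 fold change of -0.52 had a standard error of 0.34 (adjusted p = 0.348), and its genotypes overlapped.

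**Figure D1:**
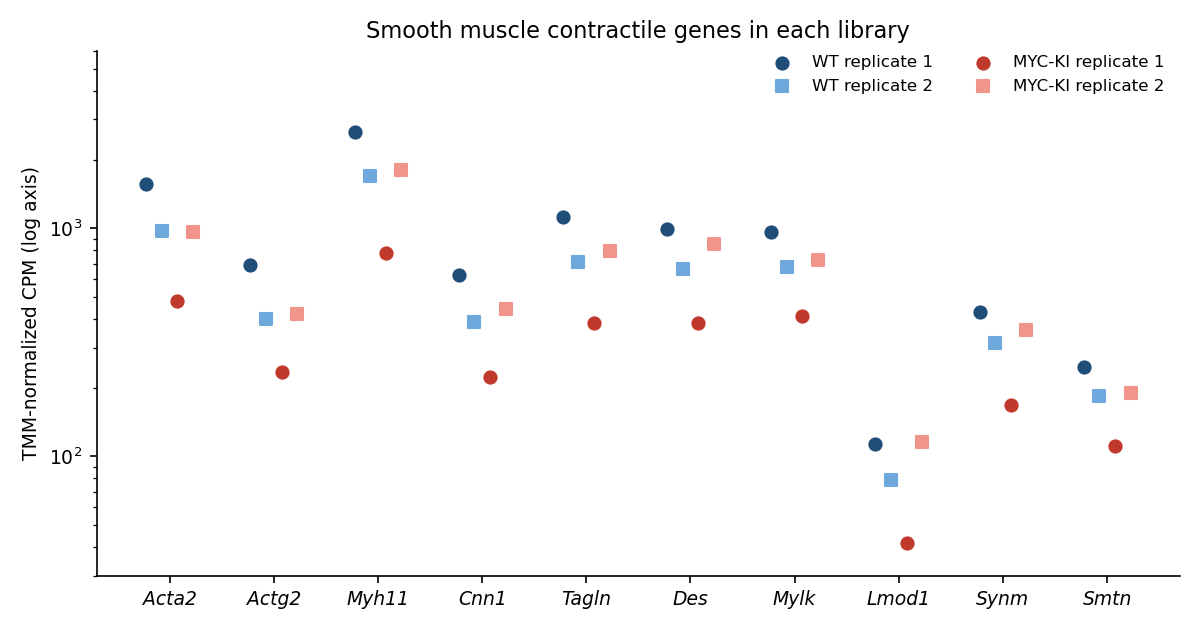
Level of each of the 10 smooth muscle contractile genes in each library, in TMM-normalized CPM on a log axis, with 1 point per library. MYC-KI replicate 1 is the lowest point of every gene, and MYC-KI replicate 2 lies above WT replicate 2 for 9 of the 10.

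Among the proteins bound to the actin filament, *Tagln* (chr9:45929619-45936058, minus strand), which encodes transgelin or SM22-alpha, had 1126 and 711 CPM in WT and 384 and 793 in MYC-KI. *Cnn1* (chr9:22099216-22109630, plus strand), the calponin that restrains the actomyosin ATPase, had 627 and 387 CPM in WT and 223 and 444 in MYC-KI. Both showed the order of the myosin gene, with MYC-KI replicate 2 between the WT libraries and MYC-KI replicate 1 far below. Transgelin came to -0.64 on the log2 scale (standard error 0.43, adjusted p = 0.357), and calponin came to -0.61 with a standard error of 0.42 (adjusted p = 0.372). *Smtn* (chr11:3517523-3540612, minus strand), smoothelin, which is found in contractile muscle cells, had 246 and 184 CPM in WT and 111 and 190 in MYC-KI. It had the smallest standard error of the 10 genes, 0.30, with its log2 fold change at -0.52 (adjusted p = 0.306). *Lmod1* (chr1:135324807-135368065, plus strand), a leiomodin that nucleates actin filaments, had 113 and 78.6 CPM in WT and 41.5 and 116 in MYC-KI. It was the only gene of the 10 with its highest value in a MYC-KI library, and the one with the smallest log2 fold change, -0.28 (standard error 0.53, adjusted p = 0.745).

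The intermediate filament genes behaved alike. *Des* (chr1:75360329-75368579, plus strand), desmin, had 997 and 662 CPM in WT and 383 and 852 in MYC-KI, and its log2 fold change was -0.43 (standard error 0.44, adjusted p = 0.549). *Synm* (chr7:67730160-67759742, minus strand), synemin, which assembles with desmin, had 432 and 313 CPM in WT and 168 and 359 in MYC-KI, and its log2 fold change was -0.50 (standard error 0.41, adjusted p = 0.446). MYC-KI replicate 2 lay above WT replicate 2 for both genes.

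CPM values compared between genes depend on transcript length, so levels were also divided by the summed length of coding-transcript exons in GENCODE M21. On this scale of CPM per kilobase the means over the 4 libraries were 489 for *Acta2*, 473 for *Tagln*, 320 for *Actg2*, 261 for *Myh11* and 239 for *Des*. They were 167 for *Cnn1*, 85.9 for *Mylk*, 46.9 for *Smtn*, 40.1 for *Synm* and 22.1 for *Lmod1*. The ranges of every neighbouring pair in this order overlapped across libraries. Within a library the order was the same in both WT libraries, and in both MYC-KI libraries *Tagln* stood above *Acta2* and *Des* above *Myh11*.

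The libraries differed more within a genotype than most genes did. WT replicate 1 was 1.34- to 1.72-fold above WT replicate 2 for the 10 genes, and 6 of them differed by over 1.5-fold in this direction, against 11% of all tested genes. MYC-KI replicate 2 was 1.71- to 2.79-fold above MYC-KI replicate 1, with all 10 genes over 1.5-fold, against 14.1% of all tested genes. The median absolute log2 difference between replicates was 0.61 in WT and 1.03 in MYC-KI for the 10 genes, and 0.18 and 0.23 over all tested genes. WT replicate 1 above WT replicate 2, with WT replicate 2 between the MYC-KI libraries, was seen for 9 of the 10 genes and for 6.18% of all tested genes, a pattern chosen after the values were seen. It was also seen for 9 of the 11 striated muscle markers tested, 7 of 11 thin filament partners and 5 of 8 squamous markers. The counts were 10 of 18 for calcium handling and excitation and 12 of 30 for dense bodies, adhesion and stretch chaperones. They were 4 of 17 for myosin light chains and their control and 4 of 12 for smooth muscle transcription factors. Of pericyte and vascular muscle markers 1 of 6 showed it, of interstitial markers 2 of 6 and of enteric markers 2 of 12. The count was 0 for fibroblast, endothelial, general epithelial, parietal, chief, mesothelial, adipocyte and leukocyte markers. Summed over the 10 genes, the level was 9396 and 6077 CPM in WT and 3212 and 6664 in MYC-KI, or 0.872%, 0.560%, 0.347% and 0.718% of all counts.

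Because the replicates differ so much, the size of the genotype difference rests on which MYC-KI library is read. Without MYC-KI replicate 1 the median log2 fold change of the 10 genes was -0.19, with values from -0.40 for *Acta2* to 0.27 for *Lmod1*, and 0 of the 10 passed beside 8.68% of all genes. Without MYC-KI replicate 2, the library with the striated muscle and squamous markers, the median was -1.20, with values from -1.47 for *Myh11* to -0.95 for *Smtn*. In that fit all 10 had an unadjusted p-value under 0.05, as did 35.2% of all tested genes, and *Synm* passed the thresholds in edgeR (adjusted p = 0.0485, beside 0.0515 to 0.0974 for the other 9 and a background of 13.5% of genes called). Each of these fits leaves 1 MYC-KI library, which is assumed to vary like the WT pair. Without WT replicate 1 the median was -0.26, and without WT replicate 2, the library with high *Xist*, it was -0.84.

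**Figure D2:**
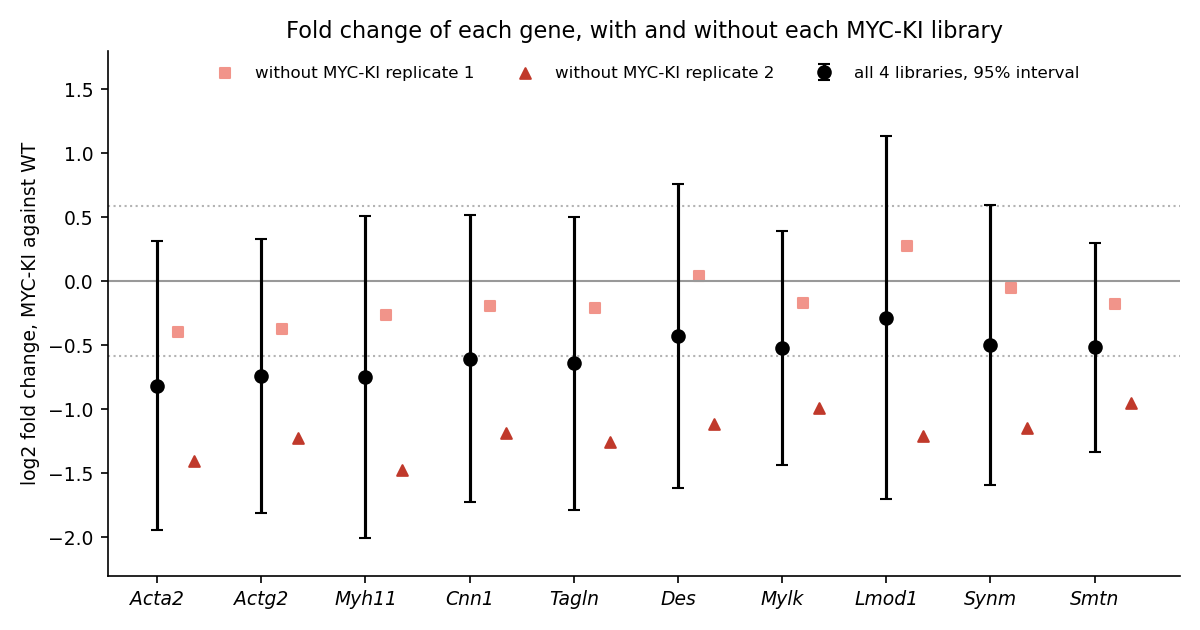
Log2 fold change of MYC-KI against WT for each gene in all 4 libraries (black, with the 95% interval) and without either MYC-KI library (squares and triangles). Dotted lines mark a 1.5-fold change, every interval includes 0, and the values without MYC-KI replicate 2 run from -1.47 to -0.95.

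Within a library, the proportions of the 10 genes to each other varied far less than their levels. The log2 ratio of each gene to the sum of the other 9 spanned 0.04 (*Tagln*) to 0.54 (*Lmod1*) over the 4 libraries. For *Acta2* the ratio was -2.32 and -2.39 in WT and -2.51 and -2.57 in MYC-KI, and for *Myh11* it was -1.36 and -1.37 in WT and -1.64 and -1.44 in MYC-KI. The ratio of *Des* was -3.07 and -3.03 in WT and -2.89 and -2.77 in MYC-KI, and that of *Synm* was -4.38 and -4.20 in WT and -4.18 and -4.13 in MYC-KI. For these 4 of the 10 genes the genotypes did not overlap, which is near the share over all tested genes, 43.8%, and is no result about them. The ratios are given as a description, with no test. *Lmod1* had its highest ratio, -5.82, in MYC-KI replicate 2, against -6.35 to -6.25 in the other libraries. Desmin and synemin are also proteins of striated muscle, whose markers were highest in that same library, and the part of that tissue in these ratios was not tested.

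**Figure D3:**
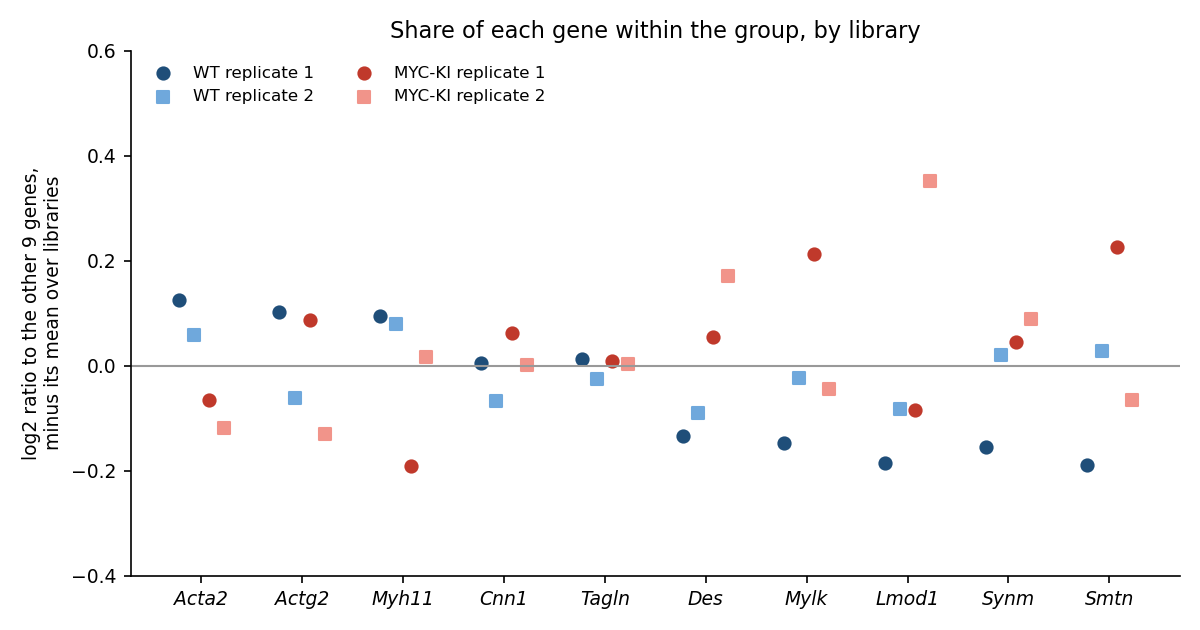
Log2 ratio of each gene to the sum of the other 9 in each library, shown as the difference from the mean of the gene over the 4 libraries. *Tagln* and *Cnn1* keep nearly the same share everywhere, and the highest point is *Lmod1* in MYC-KI replicate 2.

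Genes that act with these 10 were read in the same fit, in 5 lists of 88 genes that were all tested. Of the 11 thin filament partners, 9 had a negative log2 fold change and 1 passed the thresholds, with a median of -0.35. Over the 5 lists 1 of 88 genes passed, beside the 10.7% of all tested genes given above. The gene that passed was *Cnn3*, an acidic calponin also made outside muscle, which fell from 248 and 259 CPM in WT to 58.3 and 62.0 in MYC-KI (log2 fold change -2.08, standard error 0.09, adjusted p = 0.00897). Its replicates lay close together in both genotypes, unlike those of its relative *Cnn1*. *Tpm1* and *Tpm2*, the tropomyosins that lie along the thin filament, and *Cald1*, caldesmon, which restrains myosin, had log2 fold changes of -0.56, -0.54 and -0.51 (adjusted p = 0.263, 0.472 and 0.409). *Tpm2* had 745 and 429 CPM in WT and 258 and 552 in MYC-KI, the library order of *Myh11* and of most of the contractile genes. Without MYC-KI replicate 1 the log2 fold changes of *Tpm1*, *Tpm2* and *Cald1* were -0.25, -0.088 and -0.070, and without MYC-KI replicate 2 they were -0.96, -1.19 and -1.13, with *Cald1* past the thresholds of edgeR in the latter fit (adjusted p = 0.0298). The cytoplasmic actins *Actb* and *Actg1*, which nearly all cells make, had log2 fold changes of -0.06 and -0.03 (95% intervals -0.42 to 0.30 and -0.29 to 0.24), and 0.16 and 0.20 with library size in place of TMM.

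Among the myosin light chains and their control, 0 of 17 genes passed in edgeR, with 13 below 0 and a median of -0.30. *Myl9*, the regulatory light chain that the kinase phosphorylates, had 669 and 421 CPM in WT and 237 and 468 in MYC-KI (log2 fold change -0.63, standard error 0.41, adjusted p = 0.347). Its log2 fold change was -0.22 without MYC-KI replicate 1 and -1.20 without MYC-KI replicate 2. Nearest to the threshold was *Gucy1b3*, a subunit of the nitric oxide receptor that relaxes muscle, which was chosen after its values were seen and reached -0.94 on the log2 scale (standard error 0.20, adjusted p = 0.0516), and passed in edgeR with other filters, with the size factors of DESeq2 or without MYC-KI replicate 2, and in DESeq2. Among dense bodies, adhesion and stretch chaperones 0 of 30 passed, with 26 below 0 and a median of -0.53, and 22 of the 30 were over 1.5-fold higher in MYC-KI replicate 2 than in replicate 1, beside 14.1% of all tested genes. Among genes of calcium handling and excitation 0 of 18 passed, with 17 below 0 and a median of -0.54. Of the 88 genes of all 5 lists, 11 passed in DESeq2, beside 17.7% of all its tested genes, and all 11 were lower. In edgeR without MYC-KI replicate 2, 43 of the 88 passed, all of them lower, beside 13.5% of all tested genes.

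Of the 12 smooth muscle transcription factors 0 passed, with 9 below 0 and a median of -0.36. *Srf* had 71.2 and 70.7 CPM in WT and 64.4 and 83.1 in MYC-KI (log2 fold change 0.06, 95% interval -0.33 to 0.44, adjusted p = 0.821). *Myocd*, the muscle-restricted coactivator of SRF, had 28.0 and 25.2 CPM in WT and 12.7 and 18.8 in MYC-KI, so both MYC-KI libraries lay below both WT libraries. Its log2 fold change of -0.75 (standard error 0.23) had an adjusted p-value of 0.10 in edgeR and of 0.0225 in DESeq2, in which it passed. In edgeR it was at -0.50 (adjusted p = 0.125) without MYC-KI replicate 1 and passed at -1.06 (adjusted p = 0.0309) without MYC-KI replicate 2.

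**Figure D4:**
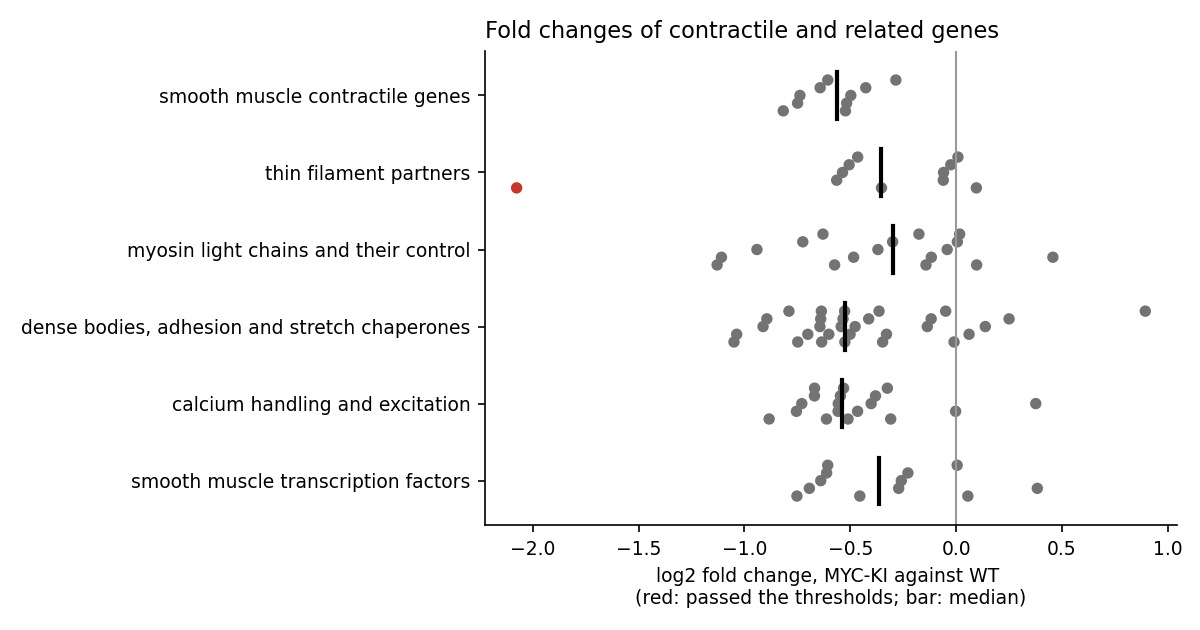
Log2 fold change of MYC-KI against WT for the 10 contractile genes and for each gene of 5 lists that act with them, with 1 point per gene and a bar at the median. *Cnn3*, in red at -2.08, is the only point that passed the thresholds, and the 6 medians lie between -0.56 and -0.30.

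Cells that surround or resemble smooth muscle were read from marker lists. The 6 pericyte and vascular muscle markers summed to 694 to 743 CPM in WT and 430 to 564 in MYC-KI, with 0 of 6 past the thresholds and a median of -0.58. All 6 endothelial markers fell, among them *Kdr*, a receptor for VEGF (log2 fold change -1.83, adjusted p = 0.0335), and *Tek*, the angiopoietin receptor (log2 fold change -1.56, adjusted p = 0.0175), and they summed to 361 to 381 CPM in WT and 138 to 145 in MYC-KI. All 8 fibroblast markers had a negative log2 fold change, with a median of -1.40, and 3 of them passed the thresholds. These were *Pdgfra*, which is also in the list of interstitial cells, and the collagens *Col3a1* (log2 fold change -1.52, adjusted p = 0.0437) and *Col1a1* (log2 fold change -1.47, adjusted p = 0.0349). The fibroblast list summed to 2609 to 2904 CPM in WT and 762 to 1341 in MYC-KI. The differences between these lists and the contractile genes were not tested.

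Interstitial cells of Cajal pace the gut muscle, and PDGFRA-positive cells relay inhibitory nerve signals to it. Of these 6 markers 5 had a negative log2 fold change. *Pdgfra* (log2 fold change -0.995, adjusted p = 0.0489) and *Kcnn3* (log2 fold change -1.78, adjusted p = 0.0213) passed the thresholds as lower. *Pdgfra* did not pass with library size in place of TMM (log2 fold change -0.77, adjusted p = 0.0578). *Ano1*, a calcium-activated chloride channel of the pacemaker cells that some epithelia also make, rose from 119 and 154 CPM to 293 and 285 (log2 fold change 1.09, adjusted p = 0.0286). *Kit*, which marks the same pacemaker cells and also mast cells, had 57.1 and 64.2 CPM in WT and 56.0 and 53.4 in MYC-KI (log2 fold change -0.15, 95% interval -0.40 to 0.11). Among 12 genes of enteric neurons and glia 10 had a negative log2 fold change, with a median of -0.80. *Ret*, a receptor of enteric neurons, passed the thresholds (log2 fold change -0.97, adjusted p = 0.0402). This call was lost in edgeR without MYC-KI replicate 1 (-0.93) and without MYC-KI replicate 2 (-1.02). Its list summed to 59.6 to 88.3 CPM in WT and 33.9 to 55.5 in MYC-KI.

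Markers of other tissue were read in the same libraries. *Acta1*, skeletal muscle actin, stood at 1652 and 981 counts in WT and at 51 and 23057 in MYC-KI, and *Myh2*, a skeletal myosin, at 120 and 197 in WT and at 0 and 1571 in MYC-KI. None of the 11 striated muscle markers tested passed the thresholds. The 6 general epithelial markers summed to 8920 to 9771 CPM in WT and 9754 to 10479 in MYC-KI, with 0 past the thresholds, and 0 of the 8 squamous markers passed. All 6 parietal cell markers fell, from a sum of 10650 to 10792 CPM to 258 to 308. The largest changes among these 6 were in *Atp4b* and *Atp4a*, the subunits of the acid pump, at -5.82 and -5.59 on the log2 scale (adjusted p = 0.00635 and 0.00884). The 4 chief cell markers summed to 78448 to 82849 CPM in WT and 1194 to 1514 in MYC-KI. Of these, 3 passed the thresholds as lower, among them *Pgc*, a pepsinogen, at -6.00 and *Gif*, intrinsic factor, at -4.44 (adjusted p = 0.00975 and 0.0152). The other, *Pga5*, was at 0.016. Adipocyte markers summed to 131 to 279 CPM in WT and 33.5 to 47.5 in MYC-KI. All 6 had a negative log2 fold change, with a median of -4.95, and 2 of the 6 passed the thresholds. These were *Fabp4*, a fatty acid binding protein, at -2.44 (adjusted p = 0.0245), and *Lep*, leptin, which went from 39 and 109 counts to 0 and 2. Leukocyte markers summed to 88.6 to 102 CPM and 38.3 to 51.1, and 4 of the 5 tested had a negative log2 fold change. The 2 that passed the thresholds were *Itgam*, an integrin of myeloid cells, at -1.76 and *Csf1r*, the receptor for a macrophage growth factor, at -1.56 (adjusted p = 0.0212 and 0.0152). Mesothelial markers summed to 4.74 to 13.9 CPM and 2.98 to 3.54, with 0 of 5 past the thresholds. The part of these cells in the levels of the contractile genes was not tested.

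**Figure D5:**
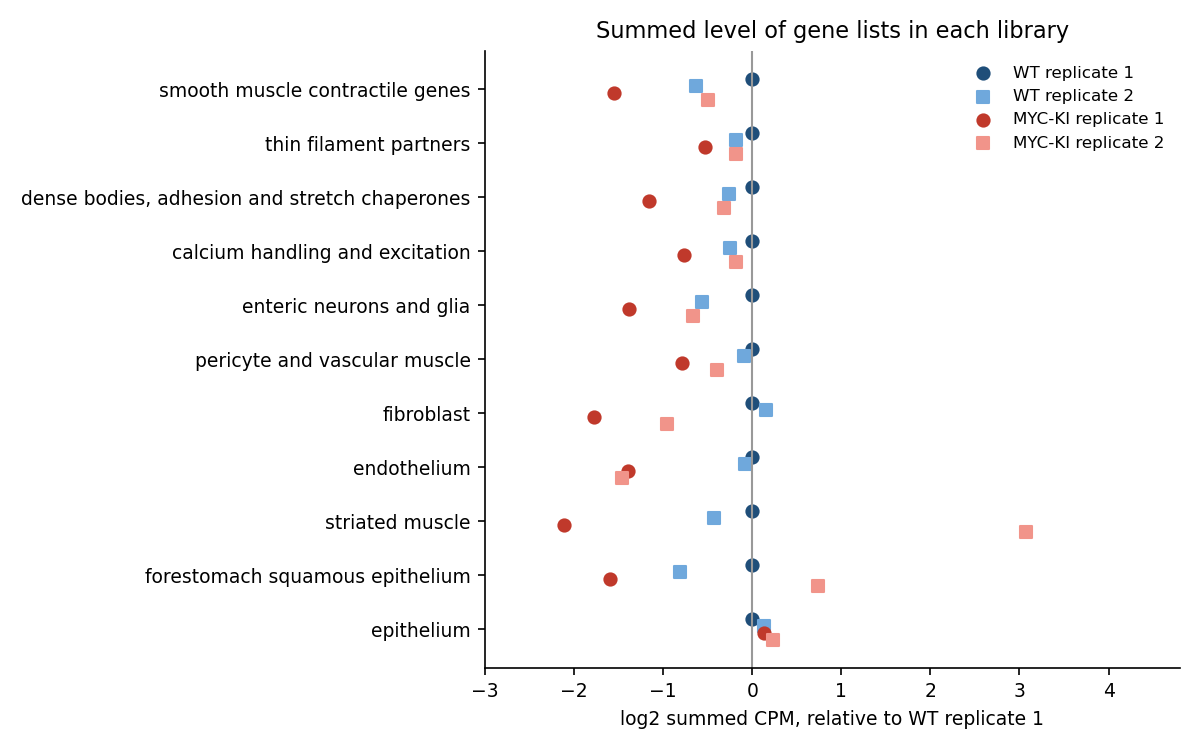
Summed CPM of 11 gene lists in each library, as log2 relative to WT replicate 1. The contractile genes place WT replicate 2 and MYC-KI replicate 2 close together, whereas the endothelial sums separate the genotypes and the striated muscle sum stands apart in MYC-KI replicate 2.

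With the gene names as deposited all 10 contractile genes were called lower in MYC-KI, as 84.1% of 22083 genes were called in one direction or the other. The MYC-KI counts beside these names are those that re-sorting assigns to other genes. Beside *Acta2* stand 1979 and 2768 counts that belong to *Acad8* after re-sorting, beside *Myh11* stand 12060 and 15376 that belong to *Myh14*, beside *Mylk* stand 6 and 180 that belong to *Mylk3*, and beside *Des* stand 4284 and 5117 that belong to *Derl1*. *Lmod1* is listed with 0 counts in both MYC-KI columns there, against 1409 and 5186 after re-sorting.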

How the data were processed

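The authors deposited 1 table of raw counts per gene symbol and sample, without normalization. The submitters' processing notes name HISAT2 and mm10, and the counting tool, annotation and read length are not given in the sources used here. No columns of per-sample values were left unmapped. The re-sorting used only gene names and no count. The members and lists were chosen with earlier results of these data known. The quasi-likelihood test of edgeR 4.0.16 (R 4.3.3; glmQLFit, then glmQLFTest) was run on genotype alone, after filterByExpr and TMM, with Benjamini-Hochberg adjustment over all tested genes and the thresholds of the study's methods. Standard errors were taken from the log2 fold change and its F statistic, and 95% intervals use the total degrees of freedom of each gene. Genes named are all 10 members, the genes of each list that passed (up to 4 a direction, 2 for marker lists) and *Srf*, *Myocd*, *Myl9*, *Tpm1*, *Tpm2*, *Cald1*, *Kit* and *Ano1*; others were chosen after their values were seen. Alternatives were DESeq2 1.42.0, its size factors, library size alone, other filters, the replicate block, other fold thresholds, leaving out each library and the deposited names. Tests were checked on simulated counts. The main fit did not pair libraries by replicate number. The correlation of replicate deviations between genotypes was 0.068 over 17643 genes. It rests on 2 numbers, so it cannot show whether libraries with the same replicate number belong together.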

Additional observations from a re-analysis of the deposited data

How the results depend on the processing

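Of 80 values (10 contractile genes under the 8 alternatives on the re-sorted table that could change a call), 77 kept their direction and stayed outside the thresholds. The median of the 10 was -0.56 and ranged from -1.20 to -0.19 when each library was left out, with 0 to 1 genes called, and was -0.34 when library size replaced TMM, under which the median of all genes moved from 0.01 to 0.23. *Lmod1* ranged from -1.21 to 0.27 (0.0028 without WT replicate 1) and *Des* from -1.12 to 0.039, the highest values being those without MYC-KI replicate 1. Called genes in the 5 related lists numbered 1, but 11 under DESeq2, 7 without a filter, 3 with library size (1 lower, 2 higher), 2 with the size factors of DESeq2 and 2 with a minimum of 10 counts, and 0 to 43 when each library was left out. Without either WT library 0 of all genes passed, so those fits do not bear on stability. With the deposited names 10 contractile genes (median -4.31) and 75 related genes were called, and these directions reversed: *Cnn3* 0.47, *Srf* -8.19, *Myocd* 2.99, *Kit* 1.96, *Ano1* -3.65, *Kcnn3* 1.88 and *Ret* 0.035. *Gucy1b3* was at 0.86, *Fabp4* at 2.22 and *Itgam* at 3.08 with those names. With library size *Kit* was at 0.076, *Actb* at 0.16 and *Actg1* at 0.20. When each library was left out, *Actb* ranged from -0.16 to 0.035 and *Actg1* from -0.086 to 0.035, and *Srf* was at -0.14 without MYC-KI replicate 2. With the replicate number as a block 0 of the 10 contractile genes passed (median -0.61), and calls over all genes numbered 114 against 1892. *Ano1*, *Kcnn3*, *Pdgfra*, *Ret*, *Col1a1*, *Col3a1*, *Itgam*, *Csf1r* and the 6 endothelial markers were not called with the block, although folds stayed close (*Ano1* 1.10, *Kcnn3* -1.79, *Ret* -0.97, *Kdr* -1.87). The causes of these shifts were not tested. With 2 libraries per genotype, the 95% intervals of the 10 genes reached from as low as -2.01 to as high as 1.13.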
